A study of Mus musculus with 12 samples.

Results

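The proteasome genes described here are those of the gene count table whose symbol is Psma, Psmb, Psmc, Psmd, Psme, Psmf or Psmg followed by a number: 48 of 55487 genes. They comprise 7 alpha and 7 constitutive beta subunits of the 20S core (3 of the latter catalytic: Psmb5, Psmb6 and Psmb7), the 3 catalytic subunits of the immunoproteasome (Psmb8, Psmb9 and Psmb10), the tissue-restricted core subunits Psma8 and Psmb11, 6 ATPase and 11 non-ATPase subunits of the 19S regulator, 3 chaperones of 19S assembly (Psmd5, Psmd9 and Psmd10), 4 chaperones of 20S assembly (Psmg1 to Psmg4), 4 activators (Psme1 to Psme4) and Psmf1, which binds the core and inhibits it in vitro. The rule uses symbols only and no measured value. It leaves out 5 pseudogenes, Psmc3ip, which is no proteasome subunit, and Psme2b, a close copy of Psme2.

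RNA was measured by polyA RNA-seq in female mouse embryonic stem (ES) cells of a C57BL6/CAST hybrid background, in which parental copies of a gene can be told apart where they differ in sequence. There were 4 groups of 3 libraries: wild type and SIRT7-KO, each at day 0 and day 7. Per the labels' protocol, leukaemia inhibitory factor (LIF, which keeps ES cells undifferentiated) was present up to day 0 and then withdrawn. The treatment label of the single libraries does not follow this: it reads LIF for 3 and none for 3 of the 6 libraries on each day. The labels do not say whether replicates were separate cultures or clones, so that p-values measure only the spread between these libraries. Library totals ran from 25190483 to 69079368 counts.

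The gene named as deleted did not have fewer reads in the libraries labelled knockout. Levels are given in CPM, counts scaled to a common library size. The day 0 level of Sirt7, a nuclear deacylase, was 12.7, 8.03 and 10.3 CPM in wild type and 19.2, 23.8 and 16.9 CPM in labelled knockout. Its day 7 level was 10.2, 10.6 and 15.3 CPM in wild type, below the 25.1, 20.1 and 23.8 CPM of labelled knockout. By edgeR, labelled knockout differed by 0.95 (adjusted p = 0.182) and 0.94 (adjusted p = 0.299) on the log2 scale, so each direction between genotypes below rests on the labels alone. The ES marker list (Pou5f1, Nanog and 5 others) summed to 5048 to 5376 CPM in the 6 day 0 libraries and to 253 to 291 CPM in the 6 day 7 libraries.

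The 26S proteasome degrades proteins that carry ubiquitin chains. Its core is a barrel of alpha rings, which gate the entrance, around beta rings, which hold the proteolytic sites, and the 19S regulator at its ends recognises, deubiquitinates, unfolds and feeds in the substrate. In immune cells, and in other cells exposed to interferon, Psmb8, Psmb9 and Psmb10 take the places of Psmb5, Psmb6 and Psmb7 in newly built cores, and Psme1 with Psme2 forms the PA28 cap, which changes the peptides produced for presentation by MHC class I.

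Upstream sequences are given for 6 members on which the results turn: the constitutive catalytic Psmb5 and Psmb6, the structural Psmb3 and the 20S chaperone Psmg4, which fell, and the immune Psmb10 and Psme2, which rose. Each is the stretch before the RefSeq start site (RefSeq, GRCm38.p6), of up to 250 bases, that lies upstream of every exon in the GENCODE annotation, written on the gene's own strand. The windows of Psmb8 and Psmb9 lie wholly within annotated exons and are not shown. Capitals mark matches, on either strand, to TGACNNNGC (the core of the antioxidant response element), CCAAT, or GAAA followed after any 2 bases by GAAA (the core of the interferon-stimulated response element). The regions are on GRCm38: chr14:54618023-54618245 (minus strand) for Psmb5, chr11:70525107-70525356 (plus) for Psmb6, chr11:97703184-97703398 (plus) for Psmb3, chr13:34162714-34162963 (plus) for Psmg4, chr8:105938445-105938642 (minus) for Psmb10 and chr14:55591114-55591351 (minus) for Psme2.
Psmb5: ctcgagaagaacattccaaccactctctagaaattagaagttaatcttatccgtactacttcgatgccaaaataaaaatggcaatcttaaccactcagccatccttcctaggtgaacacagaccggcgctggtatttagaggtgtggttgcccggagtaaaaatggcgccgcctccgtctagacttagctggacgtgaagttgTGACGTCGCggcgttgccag
Psmb6: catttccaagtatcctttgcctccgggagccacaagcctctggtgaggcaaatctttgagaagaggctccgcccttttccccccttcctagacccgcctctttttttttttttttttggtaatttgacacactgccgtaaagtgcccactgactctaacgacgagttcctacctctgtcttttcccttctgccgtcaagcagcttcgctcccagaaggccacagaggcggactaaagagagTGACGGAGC
Psmb3: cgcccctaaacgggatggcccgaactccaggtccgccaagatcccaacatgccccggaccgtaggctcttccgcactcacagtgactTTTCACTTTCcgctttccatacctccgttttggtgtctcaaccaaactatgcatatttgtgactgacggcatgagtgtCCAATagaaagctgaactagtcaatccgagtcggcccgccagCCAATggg
Psmg4: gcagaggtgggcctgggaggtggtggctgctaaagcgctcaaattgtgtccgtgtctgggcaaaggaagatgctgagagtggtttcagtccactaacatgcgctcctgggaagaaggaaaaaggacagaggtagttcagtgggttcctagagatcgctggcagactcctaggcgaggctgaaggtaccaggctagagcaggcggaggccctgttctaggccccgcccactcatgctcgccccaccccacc
Psmb10: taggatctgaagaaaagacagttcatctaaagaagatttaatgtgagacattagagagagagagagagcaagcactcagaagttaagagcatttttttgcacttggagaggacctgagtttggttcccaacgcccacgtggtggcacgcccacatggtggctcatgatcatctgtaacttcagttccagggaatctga
Psme2: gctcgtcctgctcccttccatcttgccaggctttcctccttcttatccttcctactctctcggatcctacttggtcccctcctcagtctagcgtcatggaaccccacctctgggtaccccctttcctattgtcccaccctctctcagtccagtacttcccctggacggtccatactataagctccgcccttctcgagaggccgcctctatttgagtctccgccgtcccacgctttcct
Psmb5 and Psmb6 each held 1 match to TGACNNNGC, at positions -47 and -9 from the start site, Psmb3 held 2 matches to CCAAT and 1 to the interferon-stimulated core, and the other 3 stretches held none. Over the full 250 bases, 40 of the 48 members had a window in the table. TGACNNNGC occurred in 5 of the 40 (12.5%; Psmb5, Psmb6, Psmc6, Psmd9 and Psmd12) against 11.5% of 27025 genes, and CCAAT in 14 (35.0%) against 37.5%. The interferon-stimulated core occurred in 3 (7.5%; Psmb3, Psmd4 and Psmd9) against 3.46%, and in 0 of the 5 immune members. These matches describe letters in a window and no binding was measured.

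At day 0 the subunits of the core and the regulator, which are needed in fixed numbers, differed widely in level. Per kilobase of transcript, which allows levels to be compared between genes, the 31 constitutive 20S and 19S subunits had a median of 185.7 CPM per kilobase in wild type, with medians of 238.7 for the 14 subunits of the core and 158.5 for the 17 of the regulator. They ran from 71.4 for Psmc6 to 701 for Psmb3, a ratio of 9.82. The catalytic subunits stood at 168 ± 11.1 (Psmb5), 550.4 ± 39.4 (Psmb6) and 245 ± 11.8 (Psmb7) CPM per kilobase (SD, n = 3). The assembly chaperones ran from 7.48 (Psmd5) to 117.6 (Psmg1) CPM per kilobase. Their range overlapped that of the 31 subunits, since Psmg1 and Psmg4 (75.8) lay above Psmc6. At day 7 the ratio of highest to lowest among the 31 subunits was 7.48 in wild type, from 50.7 for Psma3 to 379 for Psmb6, and their coefficient of variation was 53.5% against 65.9% at day 0. In labelled knockout it was 49.4% against 61.3%.

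Between day 0 and day 7 most genes of the core, the regulator and their assembly chaperones fell, while the immune genes Psmb8, Psmb9, Psmb10 and Psme2 rose in both genotypes. In wild type 32 of the 47 members tested were lower at day 7, 5 were higher and 10 did not pass (adjusted p at most 0.05, edgeR). In labelled knockout 30 were lower, 5 higher and 12 did not pass. These days differ widely: of all 19235 genes tested, 65.1% were called in wild type (32.9% higher and 32.1% lower) and 63.4% in labelled knockout (31.1% higher and 32.3% lower). The median log2 change of the members was -0.37 in wild type and -0.38 in labelled knockout, against 0.01 and -0.02 over all genes. The days did not overlap, with day 7 lower, for 35 members in wild type (35.6% of all genes) and 35 in labelled knockout (34.9%), and with day 7 higher for 6 (36.4%) and 5 (34.6%). Both genotypes called 29 members lower and 4 higher, and the share of all genes called alike in both is not given here. These day comparisons share no library, but they come from a single fit with a shared estimate of the spread.

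Psmb11, the thymus core subunit, was the member not tested: it had at most 16 counts in any library. All members together made up 0.960 to 0.978% of the counts in wild type and 0.846 to 0.942% in labelled knockout at day 0, and 0.699 to 0.756% and 0.695 to 0.708% at day 7. In bulk RNA, fewer cells of a type and less RNA of a gene per cell cannot be told apart, and the cell mixture changed between the days. The mesoderm list summed to 5.79 to 8.29 CPM at day 0 and 1862 to 2387 at day 7, the fibroblast list to 22.0 to 31.1 and 1084 to 1551 CPM, and the endothelium and blood list to 58.0 to 85.8 and 245 to 287 CPM. All 5 mesoderm genes rose in each genotype. Of the 7 fibroblast genes 6 rose and 1, Thy1, fell in each genotype, and of the 7 endothelium and blood genes 5 rose and 2, Gata1 and Cd34, fell in each, these 3 being named after their values were seen. Col1a1, also named so, made up most of the fibroblast sum at day 7, with 871.5 to 1293 CPM. Their part in the changes of the proteasome genes was not tested.

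**Figure D1:**
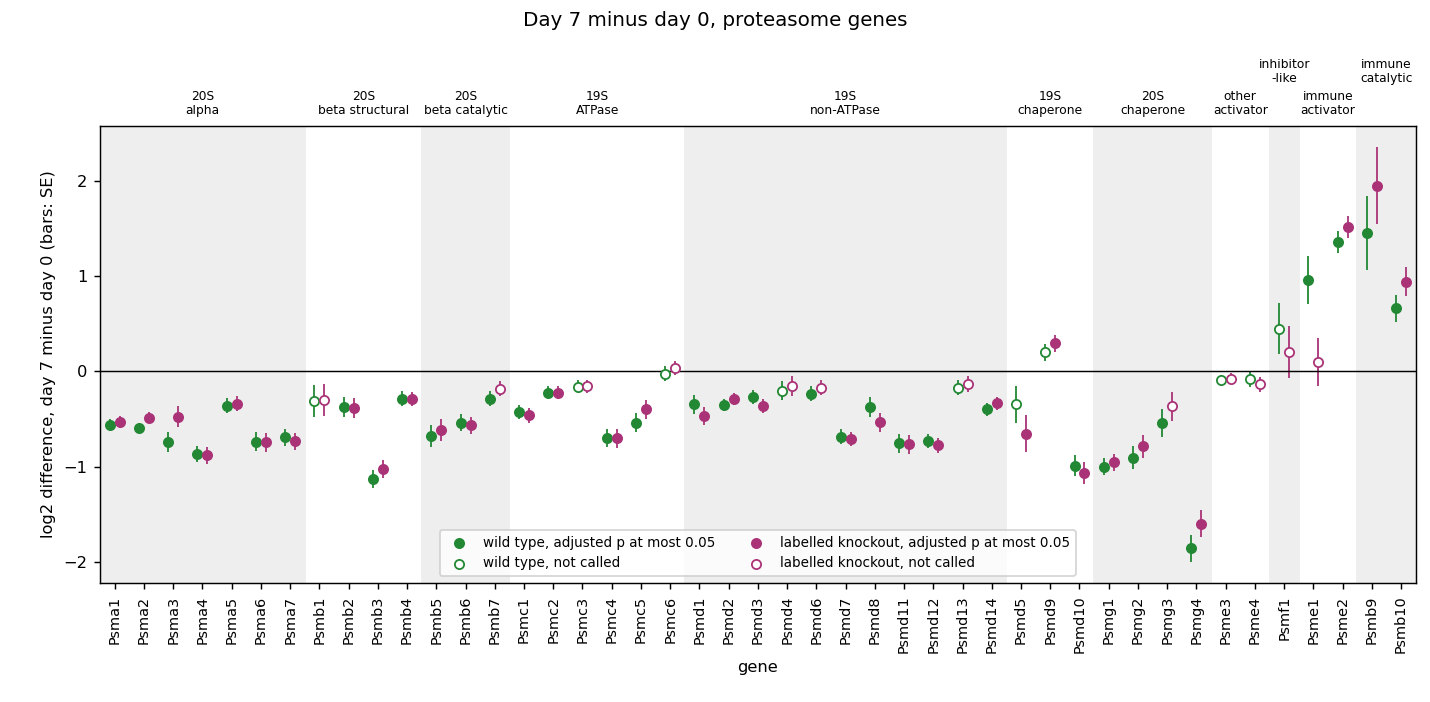
Log2 difference between day 7 and day 0 (vertical axis) for each proteasome gene, by role, in wild type (green) and labelled knockout (purple). Bars are standard errors, filled points passed adjusted p of 0.05; Psmb8, Psma8 (at 0 counts on one day) and Psmb11 (not tested) are left out. The 20S, 19S and 20S chaperone genes lie at or below 0 in nearly every case, while Psmb9, Psmb10 and Psme2 lie above it in both genotypes.

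The constitutive core fell. Of its 14 subunits 13 were lower in wild type (32.1% of all genes were) and 12 in labelled knockout (32.3%), and none was higher. Their median log2 change was -0.58 and -0.51. All 7 alpha subunits were lower in both genotypes, by 0.36 (Psma5) to 0.87 (Psma4) in wild type and 0.34 (Psma5) to 0.88 (Psma4) in labelled knockout on the log2 scale. Summed over the 14 genes the core had 3797, 4006 and 3763 CPM in wild type at day 0 and 2690, 2448 and 2495 at day 7. In labelled knockout the sums were 3007, 3566 and 3707 CPM on day 0, against 2357, 2340 and 2302 on day 7. The days did not overlap in either genotype, and labelled knockout replicate 1 was the lowest day 0 library.

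Psmb5, which carries the chymotrypsin-like site, had 158, 154.5 and 139.6 CPM in wild type and 106.5, 137.6 and 130.3 in labelled knockout at day 0, and 95.3, 102.5 and 85.3 against 91.6, 75.8 and 76.2 at day 7. The days were apart in both genotypes, and Psmb5 fell by 0.68 (SE 0.12, adjusted p = 3.64e-04) and by 0.62 (SE 0.12, adjusted p = 7.01e-04) on the log2 scale. Psmb6, with the caspase-like site, had 418.5, 474 and 420.4 CPM in wild type and 322, 395 and 389 in labelled knockout at day 0, and 320.5, 296 and 287 against 252, 241 and 253 at day 7. It too was lower in every day 7 library of its genotype, by 0.54 (SE 0.09) and 0.57 (SE 0.09), with adjusted p = 2.21e-04 and 1.53e-04 (edgeR).

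Psmb7, with the trypsin-like site, changed least of the catalytic subunits. It had 297, 291 and 271 CPM in wild type and 222, 267 and 266 in labelled knockout at day 0, and 244, 226 and 233.5 against 229, 223.5 and 213 at day 7. In wild type the days were apart and it fell by 0.29 (SE 0.08, adjusted p = 0.00754). In labelled knockout the days overlapped because replicate 1 of day 0 had 222 CPM, and the difference of -0.18 (SE 0.08) did not pass (adjusted p = 0.0643). Some of its reads are uncertain, since its exons share 405 bases with the opposite-strand gene Nek6 and whether the counting used strand is not stated. Exons of Psmb5 share 109 bases with Mir686 on the same strand. Those of Psmc3 share 215 bases with Slc39a13, and those of Psmd13 share 342 with Sirt3, both on the opposite strand. Some reads of these genes are therefore uncertain too.

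Psmb3, a structural beta subunit, had the largest fall of the constitutive core. It had 509, 567 and 534 CPM in wild type and 368, 485 and 459 in labelled knockout at day 0, and 259, 235 and 240.5 against 217, 216 and 211 at day 7. Every day 7 library had less than every day 0 library, and Psmb3 fell by 1.13 (SE 0.09, adjusted p = 1.18e-06) and 1.03 (SE 0.09, adjusted p = 2.62e-06) on the log2 scale. The structural subunit Psmb1 did not pass in either genotype (log2 difference -0.31, SE 0.17, and -0.30, SE 0.17), and its days overlapped in both.

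Most of the 19S regulator fell too. Of its 17 subunits 13 were lower in wild type (32.1% of all genes were) and 12 in labelled knockout (32.3%). None of the 17 was higher, with a median log2 change of -0.35 and -0.36. Summed over these genes it had 5242, 5229 and 5194 CPM in wild type at day 0 and 4163, 3833 and 3778 at day 7, and 4347, 4924 and 5107 against 3608, 3497 and 3561 in labelled knockout. Whether the core fell more than the regulator was not tested. Among the 6 ATPases, which unfold the substrate, 4 were lower in each genotype. Psmc4 changed most (-0.70, SE 0.10, in wild type and -0.70, SE 0.10, in labelled knockout), whereas Psmc6 did not pass in either, with log2 differences of -0.02 (SE 0.08) and 0.04 (SE 0.08). Among the 11 non-ATPase subunits, 9 were lower in wild type and 8 in labelled knockout. The largest falls were of Psmd11 (0.76 and 0.77 on the log2 scale), Psmd12 (0.73 and 0.78) and Psmd7 (0.69 and 0.71), which belong to the lid. Psmd14, the lid's deubiquitinase, fell by 0.40 (SE 0.07) and 0.33 (SE 0.07), and the ubiquitin receptor Psmd4 did not pass (-0.20, SE 0.10, and -0.15, SE 0.10).

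**Figure D2:**
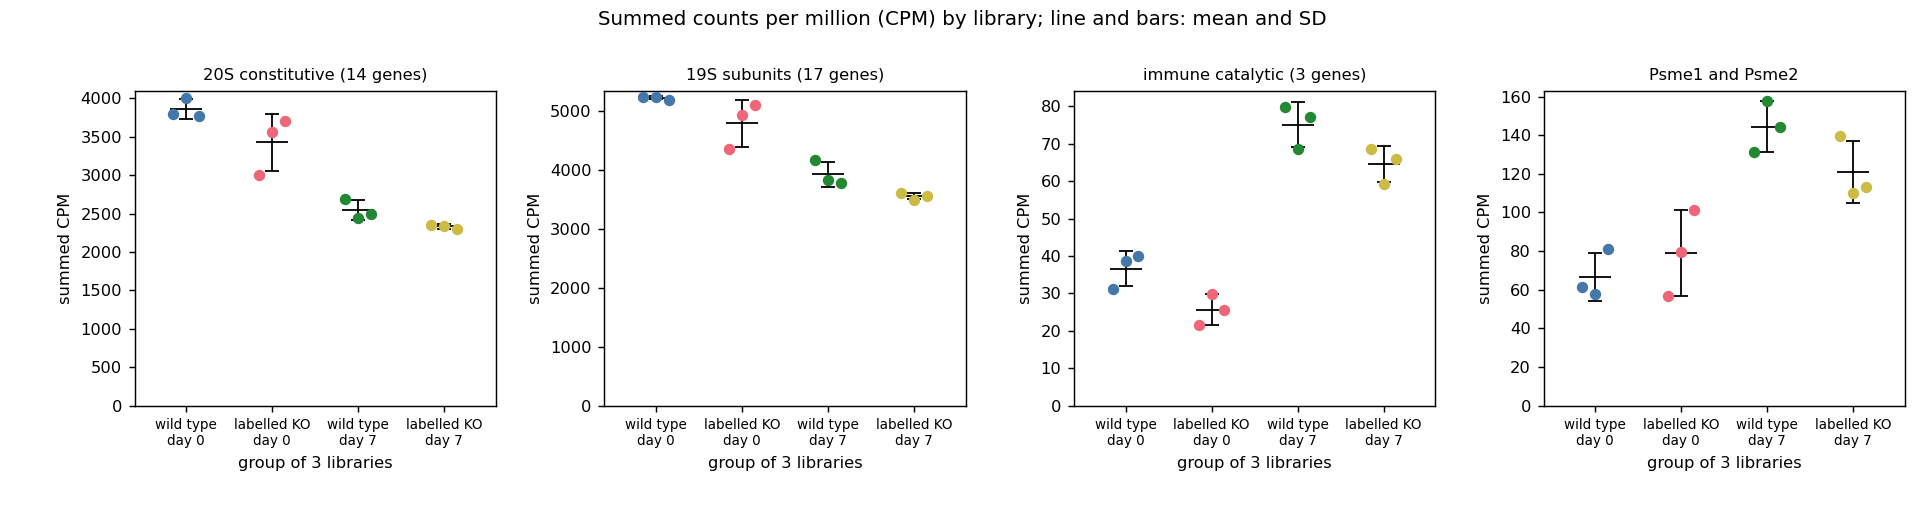
Summed CPM (vertical axes, each from 0) of 4 sets of genes in each of the 12 libraries; points are libraries, the line and bars are the mean and SD of 3. The constitutive core and the 19S regulator are lower in every day 7 library than in every day 0 library, and the 3 immune catalytic genes and Psme1 with Psme2 are higher, in each case with labelled knockout replicate 1 the lowest day 0 library.

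The 4 chaperones that build the core were lower in wild type (median log2 change -0.95) and 3 of them in labelled knockout (median of the 4, -0.87). Of all genes, 32.1% and 32.3% were lower. Psmg4 had 38.7, 42.9 and 41.8 CPM in wild type and 29.7, 41.1 and 35.2 in labelled knockout at day 0, and 12.3, 10.6 and 11.1 against 13.3, 10.9 and 10.7 at day 7. The days were far apart, and the log2 fall was 1.86 (SE 0.14, adjusted p = 5.46e-07) and 1.60 (SE 0.14, adjusted p = 1.87e-06). Psmg1, which acts with Psmg2 on the alpha ring, had 128, 123 and 115.5 CPM in wild type and 97.1, 117 and 121 in labelled knockout at day 0, and 63.4, 61.0 and 58.4 against 58.0, 59.7 and 55.5 at day 7. It fell by 1.00 (SE 0.09) and 0.95 (SE 0.09). Psmg2 fell by 0.91 and 0.79, and Psmg3 by 0.54 in wild type, where it passed, with a difference of -0.37 (SE 0.15, adjusted p = 0.0526) in labelled knockout. The fifth 20S assembly factor, Pomp, whose symbol is outside the rule, did not pass in either genotype (-0.06, SE 0.10, and -0.14, SE 0.10); it was named after its values were seen.

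The 3 chaperones of the 19S base shared no direction. Psmd10 (gankyrin), the X-linked member, had 23.9 CPM in each wild type library of day 0 and 23.6, 20.2 and 21.2 in labelled knockout, against 12.7, 12.6 and 10.8 and 10.6, 9.52 and 10.9 CPM at day 7. It fell by 0.99 (SE 0.11, adjusted p = 1.44e-05) and 1.07 (SE 0.11, adjusted p = 8.45e-06). Psmd5 passed only in labelled knockout (-0.65, SE 0.19, adjusted p = 0.0121; -0.34, SE 0.19, in wild type). Psmd9 was higher in labelled knockout (0.30, SE 0.09, adjusted p = 0.0122) and at 0.20 (SE 0.09, adjusted p = 0.0628) in wild type. For neither gene did the difference between the genotypes' changes pass (adjusted p = 0.907 and 0.963, interaction in edgeR).

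The immune catalytic subunits rose from a low level. Psmb8 had 0 counts in all 6 day 0 libraries, and 767, 1118 and 389 counts in wild type and 518, 435 and 480 in labelled knockout at day 7 (15.1 to 17.7 and 13.4 to 15.5 CPM). Against a floor of 3 counts over the group, it was at least 535-fold higher in wild type and at least 468-fold higher in labelled knockout, with adjusted p = 8.76e-08 and 1.01e-07 (edgeR). Psmb9 rose but stayed scarce, with 10, 35 and 11 counts in wild type and 8, 9 and 15 in labelled knockout at day 0, against 51, 107 and 45 and 50, 27 and 50 at day 7. Its log2 rise was 1.46 (SE 0.39, adjusted p = 0.00624) and 1.96 (SE 0.40, adjusted p = 0.00136). Its exons share 212 bases with Tap1 on the opposite strand, which had 35 to 112 counts at day 0 and 287 to 739 at day 7, so that the reads of Psmb9 are uncertain. In the authors' counts per transcript, protein-coding transcripts took 0, 17.1 and 0% of Psmb9 in wild type at day 0. At day 7 they took 31.4, 54.2 and 46.7%. In labelled knockout they had 8, 9 and 0 counts at day 0 and 13, 0 and 8 at day 7, so no rise was seen there. The rest went mostly to transcripts annotated as retained intron. These estimates rest on few reads and were not tested.

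Psmb10 was the only immune catalytic subunit with more than 100 counts at day 0. It had 30.8, 37.9 and 39.6 CPM in wild type and 21.2, 29.4 and 25.3 in labelled knockout at day 0, and 60.9, 50.3 and 60.2 against 53.8, 43.6 and 48.9 at day 7. The days were apart, with a log2 rise of 0.66 (SE 0.15, adjusted p = 0.00206) and 0.95 (SE 0.15, adjusted p = 1.79e-04). The authors' counts per transcript divide these reads unequally. The protein-coding transcript took 7.13, 13.7 and 9.21% of the counts of Psmb10 in wild type and 11.4, 4.50 and 7.92% in labelled knockout at day 0, and 69.7, 73.6 and 54.6% against 58.1, 78.4 and 61.9% at day 7, the rest going mostly to transcripts annotated as retained intron. In counts, it had 55, 221 and 105 in wild type at day 0 and 1836, 2492 and 850 at day 7. These transcript values are estimates and were not tested.

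Set against its constitutive counterpart per kilobase of transcript, each immune subunit took a larger share at day 7, and the constitutive one remained the more abundant in every library. Psmb8 made up 0% of Psmb8 plus Psmb5 at day 0, and 9.62 ± 0.606% in wild type and 9.92 ± 1.51% in labelled knockout at day 7 (SD, n = 3). Psmb10 made up 12.4 ± 1.86% and 10.1 ± 0.764% of Psmb10 plus Psmb7 at day 0 and 21.5 ± 1.29% and 19.8 ± 1.57% at day 7. Psmb9 made up 0.0759 ± 0.0295% and 0.0556 ± 0.00278% of Psmb9 plus Psmb6 at day 0 and 0.317 ± 0.0769% and 0.321 ± 0.0814% at day 7. The 3 immune genes together took 3.52 ± 0.494% and 2.91 ± 0.204% of the 6 catalytic subunits at day 0, and 8.94 ± 0.689% and 8.85 ± 0.462% at day 7. Both terms of these shares moved, since the constitutive subunits fell. The shares count all reads of a gene, including those of transcripts annotated as retained intron. Most Psmb10 counts went to such transcripts at day 0. Protein-coding transcripts took 80.6, 87.1 and 83.0% of the counts of Psmb8 in wild type at day 7. In labelled knockout they took 65.6, 51.3 and 65.2%.

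**Figure D3:**
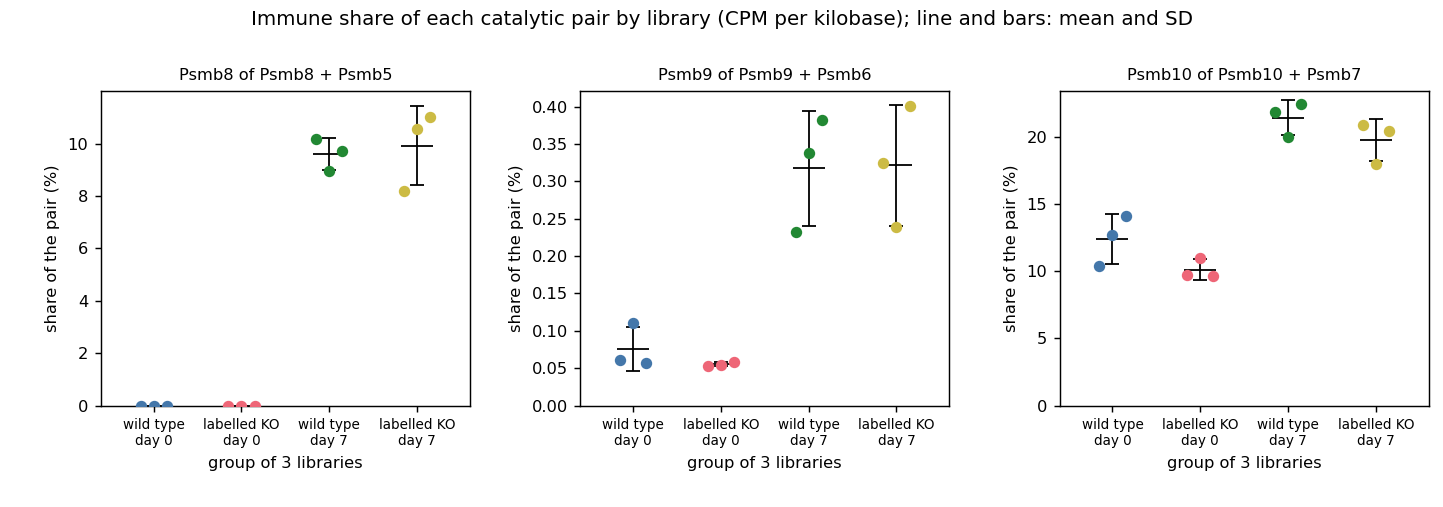
Share of each immune catalytic subunit in the sum with its constitutive counterpart (vertical axes, percent of CPM per kilobase of transcript, each from 0) in each of the 12 libraries; the line and bars are the mean and SD of 3. Every day 7 library lies above every day 0 library in each of the 3 pairs, at 8.20 to 11.01% for Psmb8, 0.232 to 0.401% for Psmb9 and 17.97 to 22.5% for Psmb10. Reads of all transcripts of a gene are counted, including those annotated as retained intron.

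Of the 4 activators, Psme2 rose in both genotypes and Psme3 and Psme4 passed in neither. Psme2 (PA28 beta) had 24.7, 21.2 and 24.6 CPM in wild type and 16.8, 21.5 and 22.0 in labelled knockout at day 0, and 57.4, 62.7 and 60.7 against 61.5, 57.5 and 54.0 at day 7. The days were apart, and it rose by 1.36 (SE 0.12, adjusted p = 1.65e-06) and 1.52 (SE 0.12, adjusted p = 7.16e-07). Reads of its close copy Psme2b cannot be separated with certainty, and Psme2b, named after its values were seen, rose by 1.47 (SE 0.16) and 1.69 (SE 0.16). Protein-coding transcripts took 28.6, 69.5 and 24.9% of the counts of Psme2 in wild type at day 0 and 52.1, 91.3 and 35.9% at day 7. In labelled knockout they took 62.8, 57.5 and 48.6%, against 34.1, 61.4 and 24.2% at day 7. For Psme1 they took 48.4 to 91.8% over the 12 libraries. These transcript estimates were not tested. Psme1 (PA28 alpha) had 36.6, 36.4 and 56.4 CPM in wild type and 39.8, 58.1 and 79.1 in labelled knockout at day 0, and 73.7, 94.9 and 83.6 against 78.1, 52.7 and 59.1 at day 7. It was higher at day 7 in wild type (0.96, SE 0.26, adjusted p = 0.00616), while in labelled knockout the days overlapped and the difference was 0.10 (SE 0.25, adjusted p = 0.746). The difference between these changes, -0.86 (SE 0.36), had an unadjusted p of 0.0349 and did not pass (adjusted p = 0.687).

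Psme3 (PA28 gamma, the nuclear cap) and Psme4 (PA200) did not pass. Psme3 had 265, 240.4 and 249.7 CPM in wild type and 240.0, 254.5 and 240.2 in labelled knockout at day 0, and 237, 240.6 and 232 against 236, 228 and 233 at day 7 (log2 difference -0.09, SE 0.06, and -0.08, SE 0.06). Psme4 had 181, 168 and 175 CPM and 201, 166 and 181.5 at day 0, and 152, 175 and 168 against 160.1, 176 and 164 at day 7 (-0.08, SE 0.08, and -0.14, SE 0.08). Psmf1 had log2 differences of 0.45 (SE 0.27) and 0.20 (SE 0.27), which did not pass.

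Psma8, the germline alpha subunit that replaces Psma7 in spermatoproteasomes, behaved in the opposite way to Psmb8. It had 255, 608 and 393 counts in wild type and 379, 354 and 633 in labelled knockout at day 0 (10.2 to 15.3 CPM over the 6 libraries), and 0 counts in all 6 day 7 libraries. Against the floor of 3 counts over a group it was at least 593-fold lower in wild type and at least 464-fold lower in labelled knockout (adjusted p = 2.64e-07 and 3.12e-07, edgeR). Per kilobase it stood at 7.82 ± 1.36 CPM in wild type at day 0 (SD, n = 3), against 258 ± 13.99 for Psma7. Psmb11 had 2 counts over the wild type and 0 over the labelled knockout libraries of day 0, and 22 and 19 counts at day 7.

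Other genes of the ubiquitin-proteasome pathway went in both directions. In wild type 8 of 16 proteasome-associated genes were higher and 3 lower at day 7 (32.9% and 32.1% of all genes). In labelled knockout 7 were higher and 3 lower (31.1% and 32.3% of all genes). The proteasome adaptor Ecpas rose by 0.89 (SE 0.08) and 0.95 (SE 0.08), the unfoldase Vcp by 0.53 (SE 0.05) and 0.49 (SE 0.05), and the shuttle factor Ubqln2 by 1.99 (SE 0.21) and 1.47 (SE 0.20), whereas Ubqln4 fell by 0.48 (SE 0.07) and 0.70 (SE 0.07). The E1 enzyme gene Uba1 fell by 0.93 (SE 0.05) and 1.03 (SE 0.05), and Rps27a, which encodes ubiquitin fused to a ribosomal protein, by 0.99 (SE 0.12) and 1.08 (SE 0.12) on the log2 scale.

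NRF1, encoded by Nfe2l1, is the transcription factor that raises proteasome genes when the proteasome is impaired, and 11 genes of its axis were listed. Of these 9 were higher and 1 lower at day 7 in wild type (32.9% and 32.1% of all genes). In labelled knockout 8 were higher and 1 lower (31.1% and 32.3% of all genes). The small MAF partners of NRF1 rose, Maff by 4.32 (SE 0.29) and 4.35 (SE 0.29) and Mafk by 2.51 (SE 0.19) and 2.55 (SE 0.20). The ER ubiquitin ligase Syvn1 rose by 1.22 (SE 0.08) and 0.94 (SE 0.08), and Btrc, a substrate receptor of an SCF ligase, fell by 1.65 (SE 0.13) and 1.60 (SE 0.13). Nfe2l1 itself, named after its values were seen, had 24.6, 25.7 and 21.4 CPM in wild type and 150, 127 and 71.0 in labelled knockout at day 0, and 170, 45.3 and 62.3 against 77.2, 48.0 and 38.7 at day 7. The wild type day 0 libraries were below all others. It rose in wild type (1.95, SE 0.47, adjusted p = 0.00333), did not pass in labelled knockout (-1.09, SE 0.45, adjusted p = 0.0557), and between genotypes at day 0 its difference of 2.28 (SE 0.47) did not pass either (adjusted p = 0.139).

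Of 14 antigen-processing and interferon genes tested, 10 were higher and 1 lower at day 7 in wild type (32.9% and 32.1% of all genes). In labelled knockout 9 were higher and 2 lower (31.1% and 32.3% of all genes). B2m, the MHC class I light chain, rose by 3.57 (SE 0.22) and 3.05 (SE 0.21), from 3.12 to 8.05 CPM over the day 0 libraries to 53.5 to 62.2 over the day 7 libraries. The peptidase gene Erap1 rose by 3.66 (SE 0.36) and 3.50 (SE 0.35), the interferon gamma receptor gene Ifngr2 by 3.10 (SE 0.21) and 2.81 (SE 0.21), and the transcription factor gene Irf1 by 1.69 (SE 0.19) and 1.04 (SE 0.19). Markers of cells that carry the immunoproteasome constitutively formed a further list. The 7 macrophage and lymphoid markers summed to 24.7 to 35.3 CPM at day 0 and 11.5 to 15.4 at day 7, with Ptprc, Csf1r and Aif1 under 1 CPM in every library. Of the 5 of them tested, 2 rose and 3 fell in each genotype.

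Between genotypes no member passed. At day 0 edgeR called 0 of 47 members (0.13% of all genes were called), 10 had an unadjusted p under 0.05 (11.9% of all genes did), and DESeq2, which called 2.92% of all genes, called 1 member, Psmb10 (log2 difference -0.52, SE 0.16, adjusted p = 0.0492; edgeR -0.51, SE 0.15, adjusted p = 0.235). At day 7 edgeR called 0 of 47 (0.026% of all genes), 4 had an unadjusted p under 0.05 (8.18% of all genes did, a share close to that of the members), and DESeq2 called 0. All 14 of these unadjusted differences were lower in labelled knockout. They were Psmb3, Psmb5, Psmb6, Psmb7, Psmb10, Psmc3, Psmc5, Psmd2, Psmd3 and Psmg3 at day 0, and Psma7, Psmb6, Psmc3 and Psmd3 at day 7, named after their values were seen. Psmb6 differed by -0.25 (SE 0.09) at day 0 and -0.28 (SE 0.09) at day 7, and Psmd3 by -0.17 (SE 0.07) and -0.26 (SE 0.07).

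**Figure D4:**
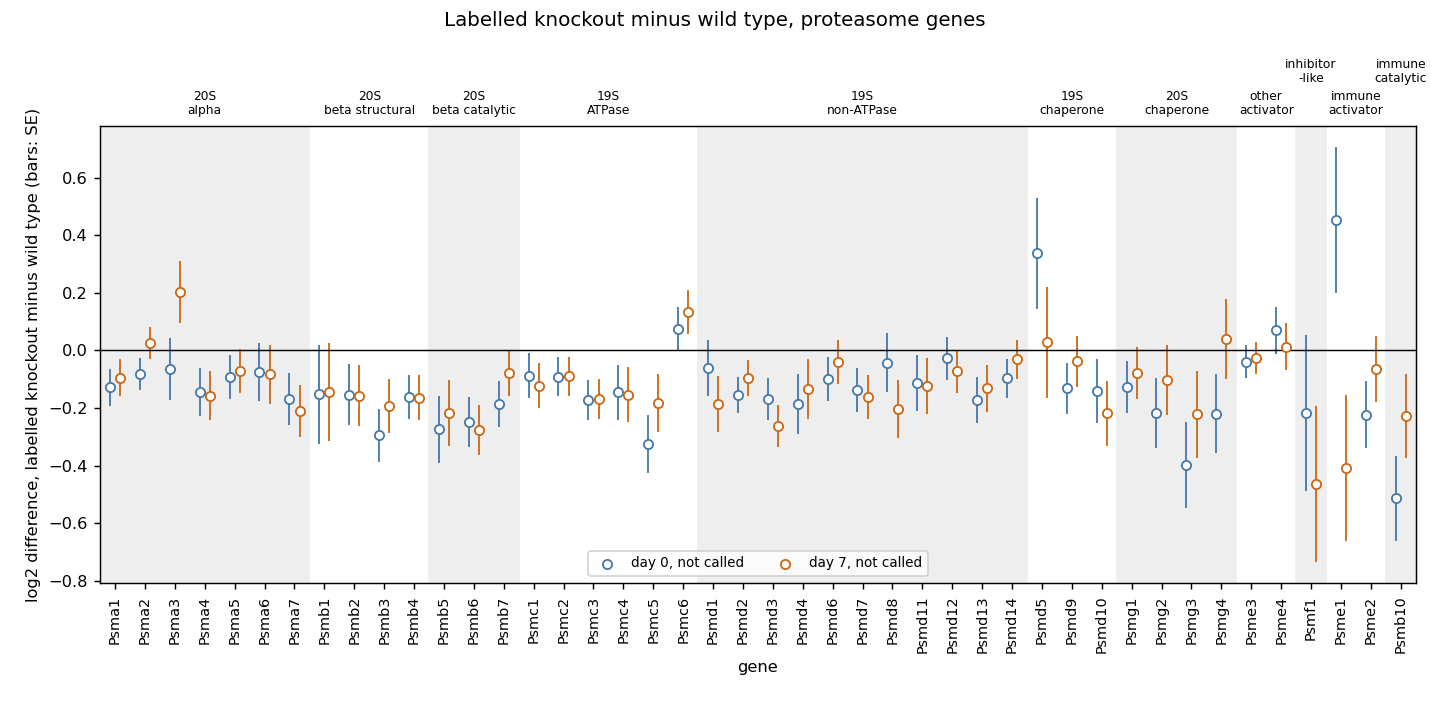
Log2 difference between labelled knockout and wild type (vertical axis) for each proteasome gene, by role, at day 0 (blue) and day 7 (orange). Bars are standard errors; no point passed adjusted p of 0.05; Psmb8, Psma8 (at 0 counts on one day), Psmb9 (few counts) and Psmb11 are left out. Most points lie below 0 on both days. Over all 47 genes tested, including Psmb8, Psma8 and Psmb9, which are not drawn, 41 were below 0 at day 0 and 40 at day 7.

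The small differences lay mostly on one side. The fitted difference was negative for 41 of 47 members at day 0 (median -0.14, against 0.00 over all genes) and for 40 of 47 at day 7 (median -0.13, against -0.02 over all genes). The groups did not overlap, with labelled knockout lower, for 18 members at day 0 (7.22% of all genes) and 19 at day 7 (12.8%), and with labelled knockout higher for 0 (8.48%) and 2 (6.7%), the latter being Psma3 and Psmc6. Single libraries weighed on these medians. Without labelled knockout replicate 1 of day 0, which had 8221 summed CPM over all members against 9382 and 9715 in the other replicates, the day 0 median was -0.09 over all members and -0.07 over the 31 constitutive subunits (-0.14 with it). Without wild type replicate 1 of day 7, which had the highest sum of its group (7710 CPM against 7169 and 7131), the day 7 median was -0.08. Directions would turn if the genotype labels were exchanged.

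The change over 7 days did not differ between genotypes for any member at the threshold. By the interaction term edgeR called 0 of 47 members (0.026% of all genes were called), 1 had an unadjusted p under 0.05 (Psme1, above; 6.86% of all genes did), and DESeq2 called 0. The difference between the changes was positive for 26 and negative for 21 members, with a median of 0.01, against -0.05 over all genes. These counts moved with single libraries. Without labelled knockout replicate 3 of day 0, 11 were negative, and without wild type replicate 2 of day 7, 25 were. For Psmb5 the difference between the changes was 0.06 (SE 0.16), for Psmb6 -0.03 (SE 0.12) and for Psmb10 0.28 (SE 0.21), which sets the precision with which these changes can be compared.

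Reads that cover a difference between the parental genomes give a further readout of the same genes. The table divides them into genome 1 and genome 2 without saying which strain is which, and 28.5 to 30.6% of the counts of a library were so divided. The genome 2 share of all divided reads was 27.0 to 27.99%, rather than an even share. Of the 41 members with at least 20 such reads in every library, 21 had under 5% genome 2 reads in every library, 13 had 30 to 70%, and 1, Psmd8, had over 95%. Of 9038 autosomal genes measured in the same way, 41.7% were under 5%, 13.0% were at 30 to 70% and 3.23% were over 95% in every library.

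**Figure D5:**
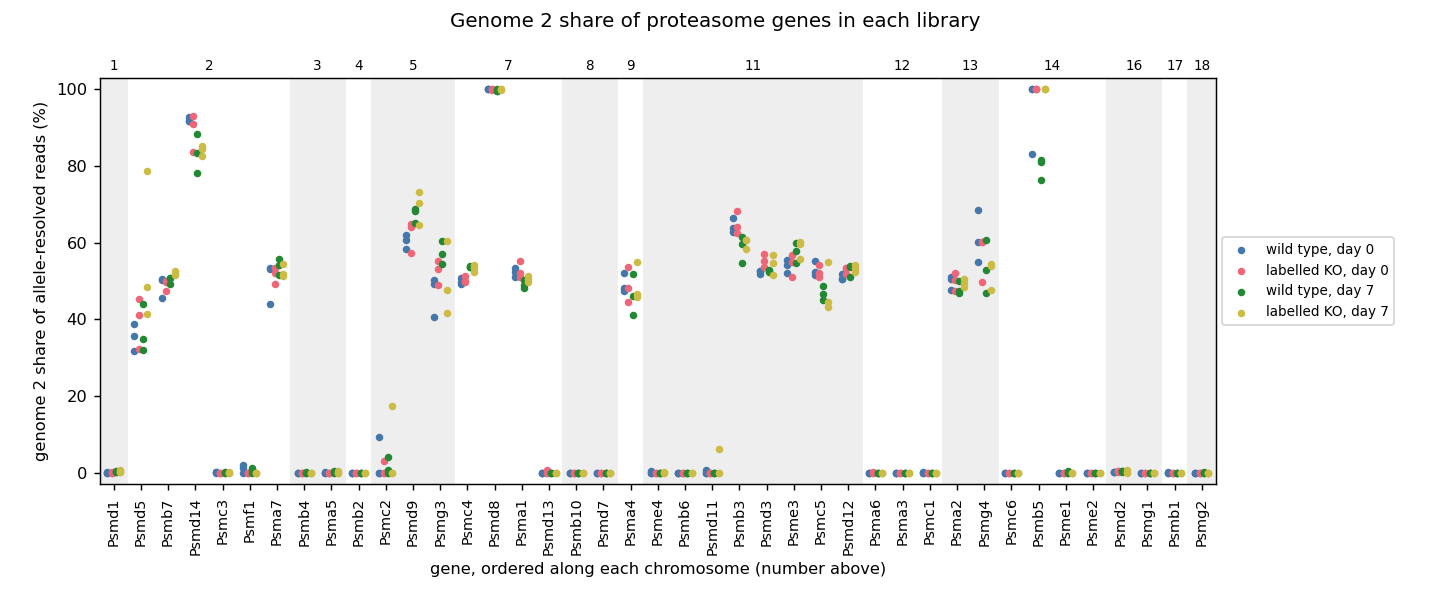
Genome 2 share of allele-resolved reads (vertical axis, percent) for the 41 proteasome genes with at least 20 such reads in every library, in order along each chromosome; each point is 1 library, coloured by group. Most genes lie either near 0 or near 50, and the 8 genes of chromosome 11 change from near 0 to about 50 between Psmd11 and Psmb3.

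The shares went with chromosomal position. On chromosome 11 (GRCm38) Psme4, Psmb6 and Psmd11, between 30771726 and 80473248, had median shares of 0%, and Psmb3, Psmd3, Psme3, Psmc5 and Psmd12, between 97703399 and 107504362, had 62.0, 52.8, 55.6, 51.3 and 52.8%. Non-member genes within 1 Mb had median shares of 0% around each of the first 3 genes and of 50.1, 52.5, 49.7, 52.0 and 52.5% around the others. Some members differed from the median of their neighbours. Psmd8 on chromosome 7 had a median share of 100% from at least 897 reads in every library, where the median of 44 neighbours was 54.1%. Psmb5 on chromosome 14 also had a median of 100%, where the 27 neighbours had a median of 48.1% with quartiles of 0.073 and 92.2%. Psmd1 on chromosome 1 had 0.13% where 9 neighbours had a median of 28.5% with quartiles of 0.284 and 61.4%, so that some neighbours lay close to it. These genes were named after their values were seen, and how many informative positions each gene has is not stated.

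The allele-resolved test asked whether these shares changed, and no member passed. Genome 2 gave under 5% of the reads of 21 members, and over 95% of those of Psmd8, in every library. Nearly all reads of these genes came from a single genome, so that the test could show little for them. EdgeR called 0 of 41 members in each comparison, against 3.67% and 2.99% of 9344 genes between the days in wild type and labelled knockout, and 0% and 0.0321% between genotypes at day 0 and day 7. An unadjusted p under 0.05 was found for 2, 1, 0 and 1 members, against 12.1, 10.3, 3.1 and 2.38% of all genes, and no other tool was run on these counts. Psmb5 had shares of 100, 83.2 and 100% in wild type at day 0 and 80.9, 81.6 and 76.3% at day 7, and 100% in all 6 labelled knockout libraries. Its ratio did not pass between days in wild type (log2 difference -3.47, SE 1.82, adjusted p = 0.590) or between genotypes at day 7 (unadjusted p = 0.0147, adjusted p = 1.00). Without wild type replicate 2 of day 0 it was the 1 member called between the days (adjusted p = 0.0179). Psmd14 had 92.7, 91.8 and 91.7% in wild type at day 0 and 88.3, 78.1 and 83.4% at day 7, with groups apart and a log2 difference of -1.18 (SE 0.37) that did not pass (adjusted p = 0.159).

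Psmd10, on the X chromosome (140948429 to 140956728), had too few allele-resolved reads in 1 library for the test. In labelled knockout its genome 2 share was 58.3, 50 and 45.7% at day 0 and 100% in all 3 day 7 libraries, from 100, 61 and 78 reads, with lower Wilson 95% limits of 96.3, 94.1 and 95.3%. In wild type it was 97.0, 56.3 and 45.5% at day 0 and 58.8, 100 and 83.3% at day 7, from 17, 248 and 42 reads. The labelled knockout days were apart and the wild type days overlapped, with wild type replicate 1 of day 0 at 2 genome 1 reads of 67. These limits cover counting error only. With a minimum of 10 reads it was tested and did not pass (adjusted p = 0.18 in labelled knockout). Over all libraries its median share was 71.1%. Its 3 neighbours within 1 Mb had a median share of 83.8%, with quartiles of 81.7 and 85.2%, so a share above 50% was not particular to Psmd10. Shares of these neighbours by day are not given here.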

How the data were processed

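PolyA RNA-seq of 12 libraries was used. The authors deposited expected counts per gene and per transcript, and the same reads divided into genome 1, genome 2 and unassigned. The build was mm10 (GRCm38), and StringTie 1.3.3, HISAT2 2.1.0 and Trimmomatic 0.36 are among the programs named, per the submitters' processing notes. Settings, annotation release and use of strand are not stated there. All values were whole numbers, and groups came from the genotype and timepoint labels. The treatment label (LIF or none), which runs by genotype and replicate rather than by day, was not used.

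Counts were fitted with edgeR 4.0.16 in R 4.3.3 (quasi-likelihood test, low counts filtered by group, TMM, 1 coefficient per group over all 12 libraries), with Benjamini-Hochberg adjustment over 19235 genes and a threshold of 0.05. SEs are derived from the F statistic. CPM uses TMM library sizes, and CPM per kilobase divides it by 1 length per gene, weighted by transcript counts over all libraries. Allele counts were fitted with a term per library, for genes with at least 20 reads in every library. The fits were tested on simulated data. Alternatives were DESeq2 1.42.0, its size factors, no filter, only the groups compared, the replicate number as a block, other read minimums and leaving out each library.

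The members and lists were chosen with earlier results of these data known. By rule, values in every library were given for the catalytic, immune and tissue-restricted core subunits, Psme1 to Psme4, the X-linked member and the 4 largest rises and falls per comparison among members past the threshold, together with up to 4 genes per pathway list and Sirt7. Some genes of 1 pathway list, and the counts over that list, are not reported here. Other genes named, the length per gene, the comparison with neighbouring genes, the exon overlaps and the promoters shown were chosen after values were seen. Gene positions are from GENCODE M21 (GRCm38). Replicate numbers were not used to pair the libraries in the main fits.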

Additional observations from a re-analysis of the deposited data

How the results depend on the processing

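Of 276 alternative values for 23 changes of named members past the threshold, all kept their direction and their side of it. Leaving out 1 library gave 35 to 39 members called between the days in wild type (37 with all) and 33 to 39 in labelled knockout (35 with all), and the other settings gave 35 to 40 and 35 to 37. Between genotypes at day 0 DESeq2 called 1 member against 0 with edgeR. For the allele shares between the days in wild type, leaving out 1 library gave 0 to 1 members called. With the replicate block 37 and 35 members were called between the days, 0 between genotypes on either day and 0 by the interaction. The correlations of same-numbered libraries ran from -0.0605 to 0.0909, and 0 of 12 libraries correlated best with its own number across days. No shared signal of same-numbered libraries was seen, but whether they came from the same culture or clone is not stated. The immune share of the 6 catalytic subunits depends on the length used, and both other lengths were tried before the fixed length was chosen, after seeing the data. It was 4.22, 3.51, 10.4 and 10.3% with the union of exons and 3.897, 3.42, 8.55 and 8.38% with the transcript weights of each library, for wild type and labelled knockout at day 0 and then at day 7. The cause was not tested for any of these. Psmb9 and the allele counts of Psmd10 rest on few reads, and changes within their counting error were not detectable at this depth.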
